A study of Mus musculus with 16 samples.

Results

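Metallothioneins and the zinc transporters that work beside them were read in the livers of 16 young C57BL/6BomTac mice. The set holds 8 genes, chosen by name: the metallothioneins Mt1, Mt2 and Mt3, the transcription factor Mtf1, the exporters Slc30a1 and Slc30a10, and the importers Slc39a4 and Slc39a14. All 8 were found, on 14 probes and 23 spots of each array, and all 8 were among the 19363 genes tested of 19364 with a probe above background. Where a gene had several probes, its values come from the probe with the highest mean red signal, and the other probes serve as a check.

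The mothers breathed either filtered air or about 42 mg/m3 of the nanoparticle UV-Titan, titanium dioxide with a coated surface, by whole-body exposure for 1 h a day from gestation day 8 to 18. The offspring were 3 female controls (replicates 25, 35 and 40), 5 females of UV-Titan mothers (2, 8, 10, 16 and 21), 4 male controls (31, 33, 41 and 43) and 4 males of UV-Titan mothers (3, 4, 5 and 17). Liver RNA of each animal was hybridised on a two-colour Agilent array against a universal mouse reference RNA, a pool made from cell lines, so every value below is a log2 ratio of liver over reference unless the liver channel alone is named. The study's design speaks of newborns killed on postnatal day 2 and of weanlings killed on day 23 or 24, but the labels do not say which age, or which litter, a given liver came from.

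Metallothioneins are small, cysteine-rich proteins that hold zinc and copper and bind toxic metals such as cadmium. When free zinc rises, MTF1 binds metal response elements in the promoters of Mt1, Mt2 and Slc30a1 and raises their transcription. Glucocorticoids and inflammation also raise Mt1 and Mt2 in rodent liver, which holds much metallothionein around birth.

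Mt1 and Mt2 are neighbours in the mouse genome and were the only pair of members whose log2 ratios correlated past the threshold from array to array, so their promoters are shown. Each run is a RefSeq promoter of build GRCm38.p6, from 250 bases before to 50 bases after the annotated start of the gene, on the forward strand. Mt1 occupies chr8:94178839-94179138 and Mt2 chr8:94172368-94172667. Capitals mark the core of the metal response element, searched as TGCACNC and TGCGCNC on both strands.
Mt1: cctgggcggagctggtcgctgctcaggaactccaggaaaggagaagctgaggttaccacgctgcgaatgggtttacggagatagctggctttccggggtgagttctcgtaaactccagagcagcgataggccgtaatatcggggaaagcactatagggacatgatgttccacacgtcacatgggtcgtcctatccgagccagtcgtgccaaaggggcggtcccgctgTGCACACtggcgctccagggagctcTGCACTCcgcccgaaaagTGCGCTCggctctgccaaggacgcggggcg
Mt2: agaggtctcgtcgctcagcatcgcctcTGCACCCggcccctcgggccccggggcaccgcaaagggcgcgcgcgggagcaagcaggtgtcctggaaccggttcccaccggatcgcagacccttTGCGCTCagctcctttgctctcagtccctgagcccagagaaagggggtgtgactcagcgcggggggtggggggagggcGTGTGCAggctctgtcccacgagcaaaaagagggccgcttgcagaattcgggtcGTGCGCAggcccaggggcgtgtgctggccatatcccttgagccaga

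The Mt1 window held 3 matches, which begin at -23, 2 and 20 relative to the start, and the Mt2 window held 4, which begin at -223, -128, -50 and 4. Of 32851 RefSeq promoters of the same length, 25.7% held at least 1 match, 1.97% at least 3 and 0.517% at least 4. The window of Slc30a10 also held 3 matches, of which a pair overlapped, that of Slc30a1 held 2, a count that 7.11% of all promoters reached, that of Mt3 held 1, and that of Mtf1 held 0. Promoters of Slc39a4 and Slc39a14 were not analysed here. A match is a stretch of letters and shows neither binding nor activity.

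The array reads Mt1 through a 60-base probe that lies, in the array's mm7 annotation, at chr8:92769155-92769214 on the forward strand. The sequence is shown because it was printed 10 times on every array, which gives the spread between repeat spots.
Mt1 probe: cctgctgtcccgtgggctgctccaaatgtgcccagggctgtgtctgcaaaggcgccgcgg
Over its 10 spots the log2 ratio had an SD of 0.02 to 0.05 within an array (median 0.03). Over the 16 arrays the SD was 0.20, which holds labelling, hybridisation and slide differences as well as those between animals. The probe shares no run longer than 5 bases with the Mt2 probe and none longer than 6 bases with the Mt3 probe.

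The labels name Cy3 as the dye of the liver RNA in one field and Cy5 in another, and the signals settle it. The median log2 ratio of red over green for 10 hepatocyte genes, such as Alb and Ttr, was never below 4.70 and reached 6.08, and red was therefore read as liver. Xist lay between 1.69 and 2.08 in the 8 females and between -6.10 and -4.78 in the 8 males, and Ddx3y lay between -2.21 and -1.39 in females and between 1.61 and 2.03 in males, so all 16 arrays carried the sex of their labels. Of the red spots, 57.7 to 67.1% were well above background, and 0 spots were saturated. Genes of exocrine pancreas (8 of 10 listed were measured) averaged 3.56 and 2.37 in male controls 31 and 33 and 0.17 to 0.54 in the other 14 livers, and skeletal muscle genes (6 of 7) averaged 1.25 in male UV-Titan 5 and -1.62 to -0.79 elsewhere. By whole-tissue RNA, a change in the number of cells of a type and a change in RNA per cell cannot be told apart.

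All 8 members were above background in liver on all 16 arrays and brighter in liver than in the reference. Slc30a10, which in the liver exports manganese, stood highest over the reference at a log2 ratio of 3.40 ± 0.22 (SD, n = 16). Slc39a4, an importer known for taking up zinc in the gut, stood at 2.70 ± 0.15. Mt2 stood at 2.19 ± 0.21 and Mt1 at 1.87 ± 0.20, that is 4.58 and 3.66 times the reference. The zinc exporter Slc30a1 stood at 1.71 ± 0.19, and Slc39a14, which brings zinc, iron and manganese into hepatocytes, at 1.44 ± 0.20. Mtf1 and Mt3, the metallothionein known mainly from brain, were nearest to the reference, at 0.91 ± 0.12 and 0.61 ± 0.07. These ratios depend on what the reference pool expresses and do not rank the genes by abundance. The green signal of Slc30a10 was well above background on 8 of 16 arrays (2 of 3 female control, 2 of 5 female UV-Titan, 1 of 4 male control and 3 of 4 male UV-Titan), so its ratio rests in part on a reference value near background. With Agilent's processed signals its ratio was 5.82 ± 0.73 in place of 3.40 ± 0.22.

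**Figure D1:**
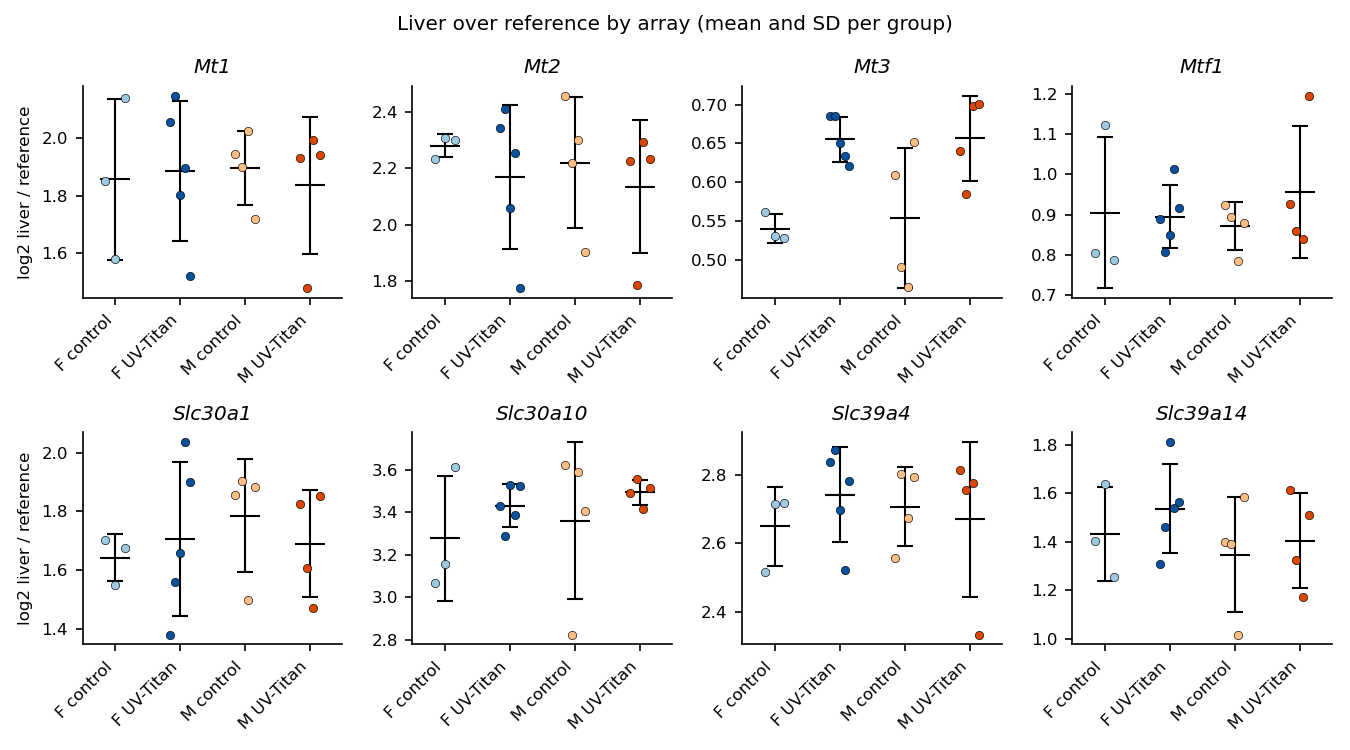
Log2 ratio of liver over reference (vertical axis, scaled per gene) for each member in female control (n = 3), female UV-Titan (n = 5), male control (n = 4) and male UV-Titan (n = 4) livers. Each point is 1 array and the bar gives the mean and SD. The groups overlap for every member except Mt3 in females, where the 5 UV-Titan arrays (0.62 to 0.69) lie above the 3 control arrays (0.53 to 0.56).

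Maternal UV-Titan was compared with clean air within each sex. None of the 8 members was called different in either sex by limma at an adjusted p under 0.05, and none of the 19363 genes was (0%). At an unadjusted p under 0.05, 6.69% of all genes passed in females and 4.94% in males. By their brightest probes 0 of the 8 members did in either sex, while a second Slc30a1 probe did in males. The median difference of the members was 0.08 in females and 0.01 in males, beside 0.02 in each for all genes, and 6 of 8 members were higher in UV-Titan females and 4 of 8 in UV-Titan males, beside 58.5% and 56.5% of all genes. From liver signal alone the direction turned: 3 of 8 were higher in females and 2 of 8 in males, with medians of -0.02 and -0.06. By ratio the differences ran from -0.11 to 0.15 in females and from -0.10 to 0.13 in males. Across the brightest probes of the 8 members by ratio, the 95% intervals reached from 0.746-fold to 1.39-fold in females and from 0.765-fold to 1.36-fold in males. From liver signal alone they were wider, from 0.681-fold to 1.49-fold in females and from 0.700-fold to 1.64-fold in males. These bounds hold for those probes only, and a second Mt1 probe gave a log2 difference of 0.47 ± 0.25 (SE) in females.

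**Figure D2:**
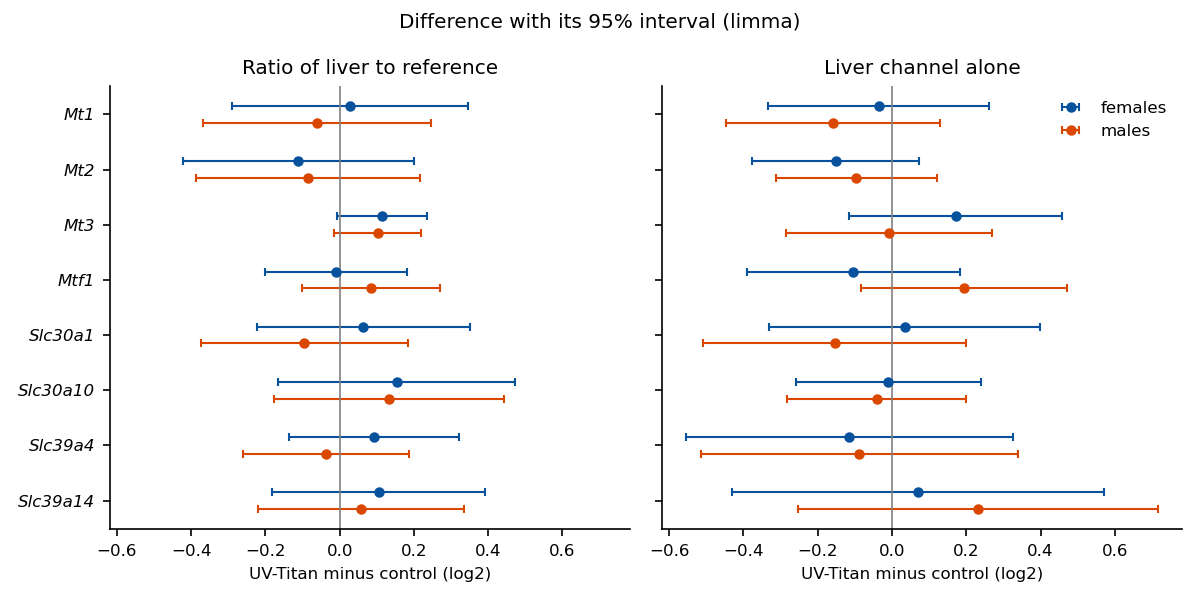
UV-Titan minus control in females (blue) and males (orange) for each member, as a log2 ratio (left) and for the liver channel alone (right). Points are differences of group means and bars their 95% intervals from limma. All 32 intervals hold 0; the narrowest by ratio are those of Mt3.

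Mt1 did not differ beyond the spread between arrays. Female controls read 1.58, 1.85 and 2.14, and female UV-Titan livers 1.52, 1.80, 1.90, 2.06 and 2.15. Male controls read 1.72, 1.90, 1.94 and 2.03, and male UV-Titan livers 1.48, 1.93, 1.94 and 1.99. The groups overlapped in both sexes, and the lowest array in each sex was a UV-Titan liver, female 21 and male 4. UV-Titan differed from control by 0.03 ± 0.15 (SE) in females and by -0.06 ± 0.14 in males, with adjusted p 0.993 and 0.984 (limma). The order of the group means, from male control at 1.90 through female UV-Titan at 1.89 and female control at 1.86 to male UV-Titan at 1.84, spanned less than the SD of any group. A second Mt1 probe gave 0.47 ± 0.25 in females, with an adjusted p of 0.789 (limma), and -0.08 ± 0.24 in males. That probe was far dimmer, with a mean red signal of 2263 beside 108800. It correlated with the first at r = 0.67 by ratio and 0.53 in the liver channel.

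Mt2 had a tight female control group and wide others. Female controls read 2.23, 2.30 and 2.31, and female UV-Titan livers 1.78, 2.06, 2.26, 2.34 and 2.41. Male controls read 1.90, 2.22, 2.30 and 2.46, and male UV-Titan livers 1.79, 2.23, 2.23 and 2.30. UV-Titan livers lay both above and below the controls in females, and the 2 lowest of the 16 were again female UV-Titan 21 and male UV-Titan 4. The difference was -0.11 ± 0.15 in females and -0.09 ± 0.14 in males, with adjusted p 0.937 and 0.974 (limma). The same differences in liver signal alone were -0.15 ± 0.11 and -0.10 ± 0.10. Quantile normalization gives spots of equal rank the same value, and for this very bright probe the values moved in steps. Male UV-Titan 3 and 4 both read 17.81, from raw red signals of 259200 and 208700. These liver-channel differences therefore rest partly on rank.

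Among the members' brightest probes, that of Mt3 had the smallest p in both sexes. Second probes of Slc30a10 in females and of Slc30a1 in males had smaller ones. Female controls read 0.53, 0.53 and 0.56, and female UV-Titan livers 0.62, 0.63, 0.65, 0.69 and 0.69. Every UV-Titan female lay above every control female, a pattern that 3.17% of all genes showed in that direction and 4.22% in either; in males, where 0 members showed it, 3.01% of all genes did. Male controls read 0.47, 0.49, 0.61 and 0.65, and male UV-Titan livers 0.58, 0.64, 0.70 and 0.70, which overlap. The difference was 0.115 ± 0.057 in females and 0.10 ± 0.06 in males, with adjusted p 0.768 and 0.954 (limma). Averaged over the sexes it was 0.11 ± 0.04, or 1.08-fold (95% interval 1.02 to 1.14), and 5 of 8 members were higher on that average, beside 60.4% of all genes. Its unadjusted p of 0.015 was the only one under 0.05 among the members' brightest probes in any comparison by ratio, where 7.04% of all genes passed, and its adjusted p was 0.577 (limma). On the same average second probes of Slc30a1 (-0.12 ± 0.05) and Slc30a10 (0.14 ± 0.06) also passed, at unadjusted p of 0.028 and 0.039. Their adjusted p were 0.648 and 0.686 (limma).

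Read from liver signal alone, the Mt3 difference was 0.17 ± 0.14 in females, where the groups overlapped, and -0.01 ± 0.13 in males. Within the slides that carried both groups of a sex, with 1 array of each, the difference by ratio was 0.15, 0.12 and 0.07 in females and 0.12, 0.09 and -0.01 in males. With slide as a block it was 0.09 in females (adjusted p 0.873, limma), and in the authors' deposited values it was 0.01. Neural genes were looked at because Mt3 is known from brain: of 6 listed, 4 were measured, and Snap25 and Nefl were above background on 1 and 0 arrays. Relative to their mean over all arrays, the neural genes averaged -0.15 to 0.02 among control females and -0.09 to 0.07 among females of UV-Titan mothers, then -0.05 to 0.03 among control males and -0.05 to 0.12 among males of UV-Titan mothers, and their part in the Mt3 values was not tested.

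Mtf1, the zinc sensor, ran from 0.79 to 1.12 among control females and 0.81 to 1.01 among females of UV-Titan mothers, then 0.79 to 0.93 among control males and 0.84 to 1.20 among males of UV-Titan mothers. All 4 ranges overlapped. UV-Titan differed by -0.01 ± 0.09 in females and 0.08 ± 0.09 in males. A second Mtf1 probe gave 0.03 ± 0.08 and -0.07 ± 0.08, and its values correlated with those of the first at r = -0.12 over the 16 arrays after group means were removed, so the probes do not follow each other. The third Mtf1 probe was well above background on 0 arrays.

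The exporter Slc30a1 ran from 1.55 to 1.70 among control females and 1.38 to 2.04 among females of UV-Titan mothers, then 1.498 to 1.91 among control males and 1.47 to 1.85 among males of UV-Titan mothers. UV-Titan differed by 0.06 ± 0.14 in females and -0.10 ± 0.13 in males, and the groups overlapped. Its second probe differed by -0.18 ± 0.07 in males, at an unadjusted p of 0.016 and an adjusted p of 0.952 (limma). The 2 probes correlated at r = 0.27.

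Slides also differed for the brightest Slc30a1 probe: the 4 arrays of slide 1 read 1.38 to 1.61 and the 3 arrays of slide 3 read 1.83 to 1.90. The second probe did not show this, at 1.45 to 1.85 on slide 1 and 1.51 to 1.65 on slide 3. Slide 1 held 1 array of each of the 4 groups. Slc30a10 ran from 3.07 to 3.61 among control females and 3.29 to 3.53 among females of UV-Titan mothers, then 2.83 to 3.62 among control males and 3.42 to 3.56 among males of UV-Titan mothers. UV-Titan differed by 0.15 ± 0.15 in females and 0.13 ± 0.15 in males by ratio, and by -0.01 ± 0.12 and -0.04 ± 0.11 in liver signal alone, where both directions turned. The lowest ratio was that of male control 33, whose reference signal lay 0.48 above its group mean and whose liver signal differed from it by -0.06. A second probe gave 0.18 ± 0.09 in females, at an unadjusted p of 0.058 and an adjusted p of 0.764 (limma), and correlated with the first at r = 0.72.

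The importer Slc39a4 ran from 2.52 to 2.72 among control females and 2.52 to 2.87 among females of UV-Titan mothers, then 2.56 to 2.80 among control males and 2.33 to 2.81 among males of UV-Titan mothers. UV-Titan differed by 0.09 ± 0.11 in females and -0.04 ± 0.11 in males by ratio, and by -0.12 ± 0.21 and -0.09 ± 0.20 from liver signal alone, where the female direction turned. Within slides the male direction turned too: the 3 pairs gave 0.08, 0.22 and 0.02 by ratio and 0.01, 0.37 and 0.13 from liver signal. The 3 arrays of slide 5 read 2.33 to 2.52, below the other 13; that slide held male UV-Titan 17 and no male control. Hepatocyte genes were also lowest by ratio on 2 of these arrays, male UV-Titan 17 (a mean of 4.92) and female control 25 (5.09). On the third, female UV-Titan 16, they averaged 5.29, and over all arrays 4.92 to 6.33. Their part in the Slc39a4 values was not tested.

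Slc39a14, known to rise in the hepatic acute phase response, ran from 1.26 to 1.64 among control females and 1.31 to 1.81 among females of UV-Titan mothers, then 1.02 to 1.58 among control males and 1.17 to 1.62 among males of UV-Titan mothers. The groups overlapped, and UV-Titan differed by 0.10 ± 0.14 in females and 0.06 ± 0.13 in males. Within slides the female difference ran from -0.33 to 0.56. Its second probe gave 0.00 ± 0.07 and 0.08 ± 0.07, and correlated with the first at r = 0.55 by ratio and -0.10 in the liver channel.

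The effect of UV-Titan was then set against sex. The female difference minus the male difference was called for 0 of the 8 members and for 0% of all genes; at an unadjusted p under 0.05, 0 members and 4.26% of genes passed. It ran from -0.09 ± 0.13 for Mtf1 to 0.16 ± 0.19 for Slc30a1. For Mt1 it was 0.09 ± 0.21, with a 95% interval from -0.35 to 0.53, so sex differences within those bounds are not excluded. Males against females, over both exposures, gave 0 members called, while 9 of all genes (0.0465%) were, and 0 members passed an unadjusted p under 0.05, beside 4.31% of genes. The member differences between the sexes ran from -0.11 ± 0.09 for Slc39a14 to 0.07 ± 0.11 for Slc30a10.

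Mt1 and Mt2 moved together from array to array, where animals cannot be told apart from labelling and hybridisation. After group means were removed, their log2 ratios correlated over the 16 arrays at r = 0.811 (permutation p = 0.00034, adjusted over 7 pairs 0.00238) and rho = 0.762 (adjusted permutation p = 0.00728). Without the 2 arrays farthest from the median of Mt1, r was 0.62, and with slide means also removed it was 0.795. From the liver channel alone, r was 0.591 (adjusted permutation p = 0.0499) and rho 0.577. The points share an array, a labelling and a normalization, as do those of every pair here.

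**Figure D3:**
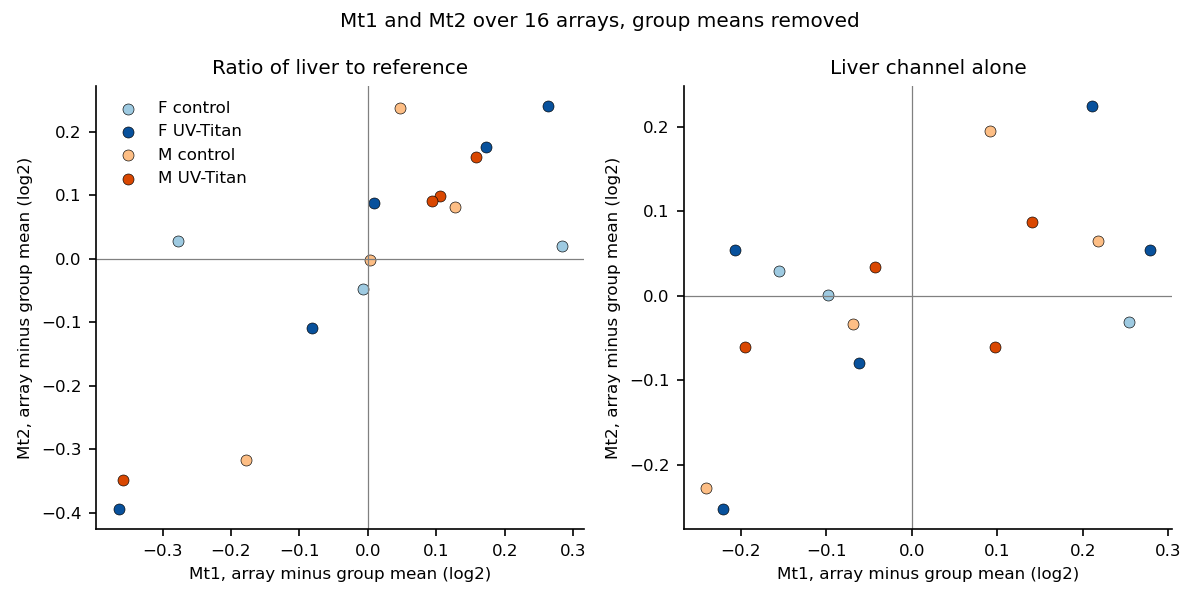
Mt2 against Mt1 over the 16 arrays, each as the array's value minus its group mean (log2), by ratio (left) and in the liver channel alone (right). Colours give the 4 groups. By ratio female UV-Titan 21, male UV-Titan 4 and male control 43 sit lowest for Mt2 and are below 0 for both genes; the correlation r is 0.811 on the left and 0.591 on the right.

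None of the other 6 members correlated with Mt1 by ratio at an adjusted permutation p under 0.05. The closest was Slc39a14 at r = -0.465 (adjusted permutation p = 0.241), and Mtf1 and Slc30a1 both gave r = -0.267. In the liver channel alone, Slc39a14 gave r = -0.65 with Mt1 (adjusted permutation p = 0.0499), which is likewise not counted as passing. There the first and second Slc39a14 probes correlated at r = -0.10, so that value holds for the brightest probe only. Of the 21 pairs without Mt1, a family added after the data were seen, 0 passed by ratio. In the liver channel 2 passed, Mtf1 with Slc39a4 at r = -0.912 and Slc30a1 with Slc39a14 at r = 0.787, which by ratio were -0.522 and 0.569 (adjusted permutation p = 0.317 for each). With slide means also removed, the liver-channel r of Slc30a1 with Slc39a14 was 0.00928 and that of Mtf1 with Slc39a4 was -0.742. The first and second Mtf1 probes correlated at r = -0.09 in the liver channel, so both pairs rest on the brightest probes.

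The reference RNA should be the same on every array, so its channel shows how far a spot's brightness moved with the array. After group means were removed, liver and reference signals of the same spot correlated with an adjusted permutation p under 0.05 for 5 of 8 members, another comparison added after the data were seen. The correlation was r = 0.949 for Slc39a4, 0.939 for Mt3, 0.872 for Slc39a14, 0.8 for Mtf1 and 0.709 for Slc30a1. For Mt1, Mt2 and Slc30a10 it was 0.303, -0.338 and -0.0342. Without the 2 farthest arrays the 5 were between 0.602 and 0.925. All 4 genes of both pairs just named are among those 5, and the part of array brightness in those correlations was not tested.

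**Figure D4:**
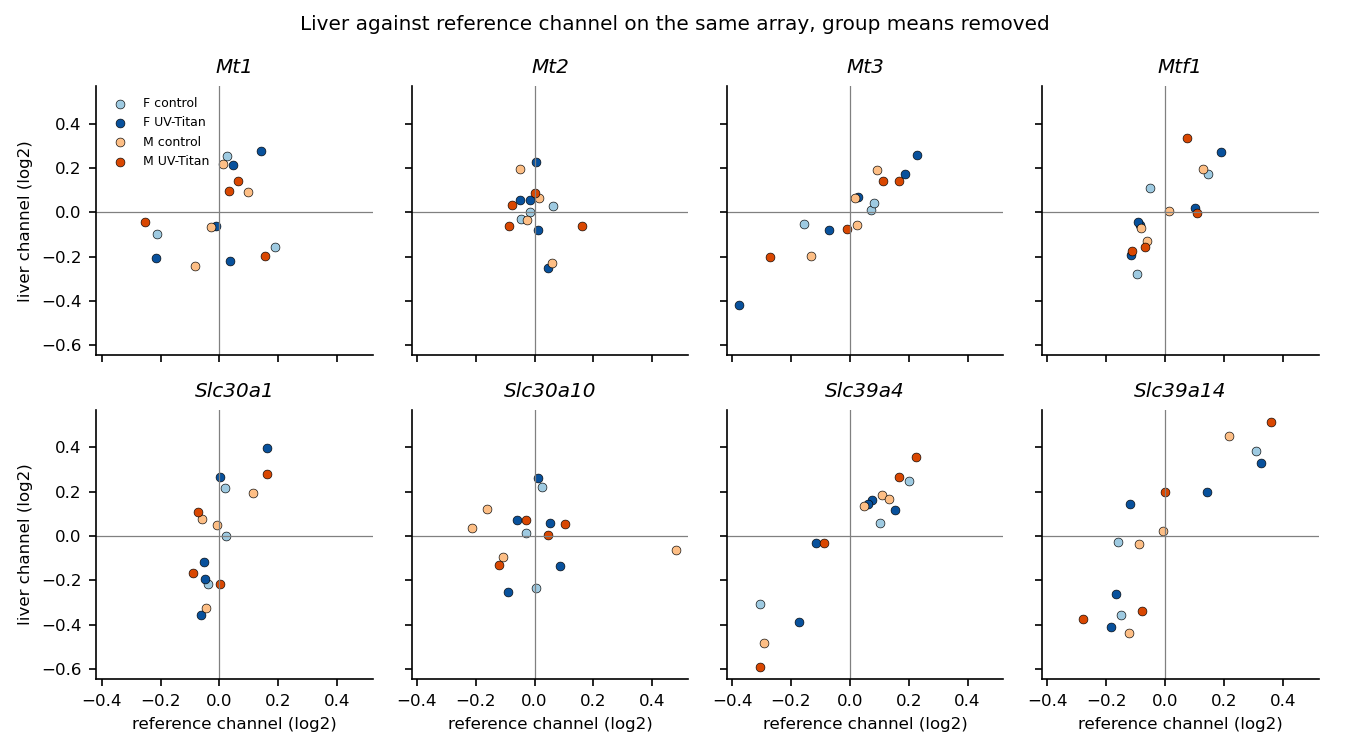
Liver (red) against reference (green) channel of the same probe over the 16 arrays, each as log2 signal minus its group mean. Points on a rising line, as for Slc39a4 (r = 0.949), Mt3 (0.939) and Slc39a14 (0.872), mean that both dyes moved together on an array; Mt2 (-0.338) and Slc30a10 (-0.0342) show no such line.

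The 5 genes whose log2 ratio followed Mt1 most closely over the 16 arrays, out of 19334 compared and after group means were removed, were 1810030O07Rik (r = 0.883), the transcript ENSMUST00000049869 (0.862), Usp11 (0.861), Selenoh (0.844) and Nudc (0.815). Mt2 ranked 6 on that list. For Mt2 they were Shc3 (r = 0.894), 1810030O07Rik (0.882), Emilin3 (0.831), Klc1 (0.827) and Cacng2 (0.826), and Mt1 ranked 9. With liver signal alone, the r of Selenoh with Mt1 was 0.848 and that of Cacng2 with Mt2 was 0.830, whereas 1810030O07Rik gave -0.04 with Mt1 and 0.17 with Mt2. The lists describe these 16 arrays and were picked as the highest of many.

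Other genes of zinc handling were read from lists of known families, and none was called in either sex (0% of all genes). Of the other SLC30 exporters, 5 of 8 were measured, and all 5 were lower in UV-Titan females by ratio (median -0.10) and 4 of 5 in males (median -0.05). Slc30a9 showed the largest of these, -0.22 ± 0.12 in females at an adjusted p of 0.773 (limma). Slc30a7, which loads zinc into the secretory pathway, differed by -0.10 ± 0.06. By liver signal alone 4 of 5 were lower in females (median -0.07) and 1 of 5 in males (median 0.03), so the male direction turned.

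Of the other SLC39 importers, 11 of 12 were measured, with 6 higher and 5 lower in each sex by ratio and a median of 0.02 in each. By liver signal alone the balance turned, to 3 higher and 8 lower in females and 4 higher and 7 lower in males, with a median of -0.04 in each. Slc39a10 differed by -0.28 ± 0.09 in females, at an unadjusted p of 0.0072 and an adjusted p of 0.655 (limma), and differed by -0.06 ± 0.09 in males. Slc39a8, which carries zinc and manganese, and Slc39a7, which releases zinc from the endoplasmic reticulum, differed by 0.18 ± 0.09 and 0.16 ± 0.08 in females. Slc39a13 differed by 0.15 ± 0.09 in males. Each missed the adjusted threshold.

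Genes reported elsewhere as MTF1 targets (8 of 8 measured) had a median of 0.04 in females and -0.03 in males, close to the 0.02 of all genes. Hamp, which encodes the iron hormone hepcidin, differed by 0.45 ± 0.22 in females and -0.23 ± 0.21 in males, and Cebpa by 0.30 ± 0.13 and 0.03 ± 0.12. Selenow and Mt4, a metallothionein of stratified epithelia, differed by 0.14 ± 0.07 and -0.02 ± 0.06 in females. Copper genes (12 of 13) had medians of 0.05 and 0.01, with the copper carrier Cp of plasma at 0.40 ± 0.19 in females (adjusted p 0.728, limma), Ccs at 0.14 ± 0.07, Cutc at -0.09 ± 0.07 and Slc31a2 at 0.00 ± 0.08. Genes of oxidative and metal stress (7 of 9) had medians of -0.01 and -0.04. Hmox1, the heme oxygenase that metals and oxidants induce, differed by 0.12 ± 0.11 in females and -0.17 ± 0.10 in males, Txnrd1 by -0.09 ± 0.09 and -0.17 ± 0.09, Osgin1 by 0.25 ± 0.17 and 0.09 ± 0.16, and the heat shock gene Hspa1a by -0.27 ± 0.15 and 0.14 ± 0.15.

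The hormonal and inflammatory inducers of Mt1 and Mt2 were read through their other targets. Glucocorticoid-induced genes (10 of 11) had a median of 0.28 in females, with 9 of 10 higher, and of -0.21 in males, with 10 of 10 lower. Of all genes 58.5% and 56.5% were higher. None was called. Relative to their mean over all arrays they averaged -0.29 to 0.02 in control females and -0.08 to 0.31 in UV-Titan females. In males they averaged -0.30 to 0.42 in controls and -0.17 to -0.12 in UV-Titan livers, a range within that of the controls. Mt1 differed by 0.03 and -0.06, and a link to these genes was not tested. Tat, a liver enzyme of tyrosine breakdown that glucocorticoids induce, differed by 0.44 ± 0.13 in females and -0.39 ± 0.12 in males, and its sex difference of 0.83 ± 0.18 had an adjusted p of 0.980 (limma). Dusp1 and Errfi1 differed by 0.33 ± 0.13 and 0.53 ± 0.27 in females, and the clock gene Per1 by -0.50 ± 0.28 in males. The list medians in liver signal alone were 0.28 and -0.16.

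Acute phase genes (16 of 16) had a median of 0.31 in females, with 13 of 16 higher, and of -0.03 in males. The examples with the smallest p were Lcn2, an iron-siderophore binder, at 0.43 ± 0.13, the endotoxin binder Lbp at 0.33 ± 0.11, the heme carrier Hpx at 0.52 ± 0.17 and Itih4 at 0.31 ± 0.12 in females, with adjusted p from 0.638 to 0.695 (limma). Granulocyte genes were also higher in UV-Titan females, 6 of 6 by ratio (median 0.53) and 6 of 6 from liver signal alone (median 0.44). On each scale 5 of them had an unadjusted p under 0.05 (limma), beside 6.69% of all genes by ratio and 3.11% from liver signal. In UV-Titan males 2 of 6 were higher by ratio and 6 of 6 from liver signal (medians -0.05 and 0.26). Relative to their mean over all arrays they averaged, by ratio, -0.61 to -0.17 in control females and -0.26 to 0.48 in the UV-Titan females, and all 6 were above background on all 16 arrays. Kupffer cell genes were higher in 5 of 5 by ratio in UV-Titan females (median 0.32) and in 3 of 5 from liver signal (median 0.00). Lcn2 is also a gene of neutrophil granules, and the part of either cell type in the list was not tested.

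Genes of the fetal liver (8 of 8) had a median of 0.41 in females, with 8 of 8 higher, and of -0.13 in males; H19 differed by 0.54 ± 0.21, Igf2 by 0.68 ± 0.27, Gpc3 by 0.43 ± 0.19 and Peg3 by 0.40 ± 0.16 in females. In the liver channel alone the female medians of the acute phase and fetal lists were 0.07 and 0.05.

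Hepatocyte genes moved with the female lists: by ratio 10 of 10 were higher in UV-Titan females (median 0.61), and 2 of 10 in UV-Titan males (median -0.24). Relative to their mean over all arrays they averaged -0.65 to -0.38 in female controls and -0.45 to 0.58 in female UV-Titan livers. The same genes in liver signal alone averaged -0.13 to 0.09 and -0.10 to 0.11, and the female median difference was 0.02. Exocrine pancreas genes moved with the male comparison, with 8 of 8 lower in UV-Titan males (median -1.31), through male controls 31 and 33. The part of either in the lists was not tested.

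**Figure D5:**
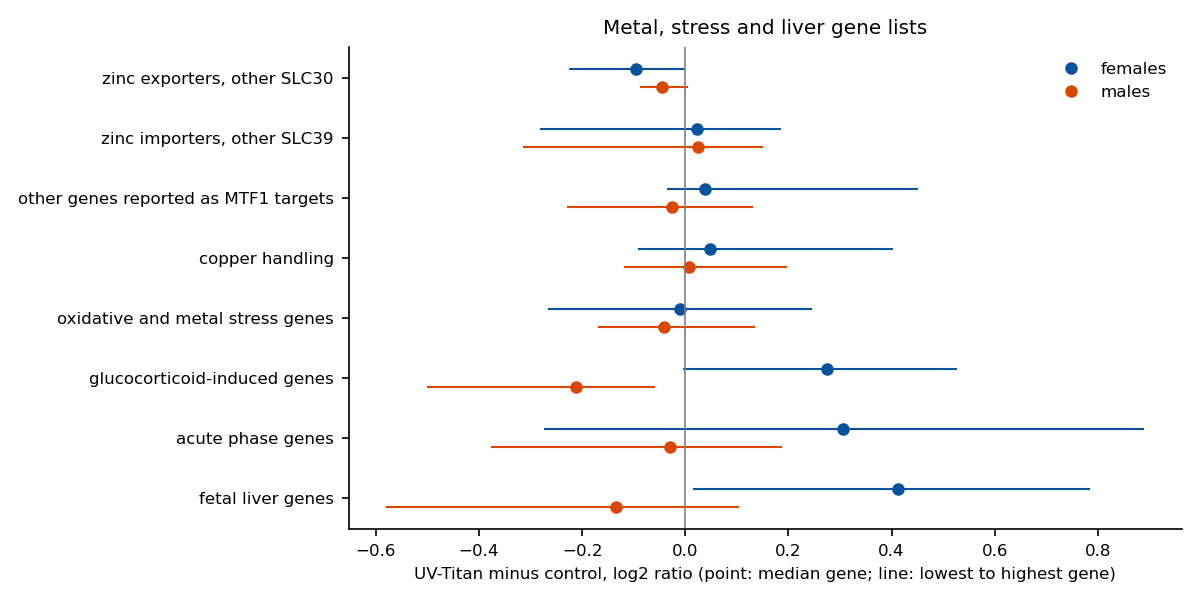
UV-Titan minus control (log2 ratio) for 8 gene lists in females (blue) and males (orange). Points are the median gene and lines run from the lowest to the highest gene of a list; no gene was called. The zinc, copper and metal stress lists have medians between -0.10 and 0.05, and the glucocorticoid, acute phase and fetal lists have female medians of 0.28, 0.31 and 0.41.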

How the data were processed

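Each array file holds scanner output of 1 two-colour Agilent array; per the file headers its red and green intensity values came from Feature Extraction 9.5.1.1, whereas the labels name 9.5.3.1. The authors' deposited log2 values of the same arrays served as an alternative; set against the raw log2 ratios of each array they had a slope of 0.893 to 0.985 and r of 0.946 to 0.994, red over green, and column medians of -0.05 to -0.04, and their normalization is not given in the sources used here. Mean signals were corrected with normexp (offset 50) and normalized by loess within arrays, with control and outlier spots (90 to 135 per array) left out of the loess curve. The liver channel alone was quantile-normalized between arrays. Spots of a probe were averaged, and a gene needed a probe well above background in red on at least 3 arrays. Of the genes, 12357 were named through an accession in RefSeq's gene table and 7007 kept the file's name.

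Group differences came from limma 3.58.1 (R 4.3.3), 1 fit over 4 groups, with Benjamini-Hochberg adjustment over 19363 genes and calls at 0.05. Correlations used residuals from group means and 100000 permutations (numpy 2.4.6, scipy 1.17.1). The permutations did not allow for the 4 group means removed, so their p-values are too small. Tested on simulated data for the female comparison (19335 genes), the fit recovered 76% of differences of 0.5 and 90% of differences of 1 log2 unit, with 8 false calls. In the simulation 50 genes were changed at each size, up to 2 log2 units, and the noise was independent, without slide effects. A lone changed gene would meet a stricter cut-off, so these shares do not give the chance of calling a member. Nothing says that the animals came from separate litters, so p-values measure the spread between these samples, and 16 arrays limit the precision. There were 5 slides and 4 scan days.

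Members and lists were chosen with earlier results of these data known. Named were all 8 members, of each list every called gene or else up to 4 genes with the smallest p in females or males, the 5 genes most like Mt1 and Mt2, and Xist and Ddx3y. The closing section gives the alternatives.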

Additional observations from a re-analysis of the deposited data

Results flagged for a closer look

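Each member was checked for an array far from its group, on the ratio and in the liver channel, over 48 groups of 4 or 5 arrays; chance gives about 1 in 20 such groups, and 5 were found. Male UV-Titan 4 stood alone for both Mt1 (1.48, nearest 1.93) and Mt2 (1.79, nearest 2.23) by ratio. Male control 41 read 1.498 for Slc30a1 (nearest 1.86), and male UV-Titan 17 read 2.33 for Slc39a4 (nearest 2.76). In the liver channel, male control 31, one of the livers with pancreas genes, read 13.26 for Slc39a4 (nearest 13.88). Without male UV-Titan 4 the male difference of Mt1 was 0.06 and that of Mt2 0.03, and neither was called.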

How the results depend on the processing

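No paired analysis was possible because the groups share no replicate number, if pairs are taken from those numbers; slides served as a block and for within-slide differences instead. Under 31 alternatives, 40 member differences (8 members, 5 comparisons) gave 1240 values, of which 0 were called (smallest adjusted p 0.344, limma). Of these, 161 had the other sign and 51 moved by more than the SD between arrays within groups. Some of the values could not move, so they are not independent checks. Leaving out an array of one sex keeps the difference in the other sex, and quantile normalization of average intensities keeps the ratios. Mt2, Mt3 and Slc39a4 have a single probe, so other probe choices repeat it. Members called stayed at 0 throughout. For all genes, where 0 were called in females, slide and scan day as a block called 1 each and array weights 6; leaving out 1 array gave 0 to 1 (1 without female UV-Titan 21 or male control 43). In males, Agilent's processed signals called 1. Averaged over sexes, 0 became 1 with no background correction, 1 with slide as a block, 10 with scan day as a block and 9 with array weights, and 0 to 11 on leaving out 1 array (11 without male control 43, 3 without female control 35, 1 without female UV-Titan 16 or 21). Male against female fell from 9 to 3 when probes had to be above background on all arrays. Median centring in place of loess shifted the median of all genes by 0.25 in females and -0.10 in males and gave Mt3 0.40 there; the authors' table gave 0.01. Members correlated with Mt1 at an adjusted permutation p under 0.05 numbered 1 by ratio and 2 in the liver channel. Both of the latter lay at 0.0499, from permutations whose p-values are too small, and are not counted as passing. The cause of these changes was not tested. The small groups, 5 slides and unknown ages and litters limit every comparison.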
